A study of Mus musculus with 24 samples.

Results

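The genes for the proteins of the cytoplasmic ribosome were followed in testes of NSun2 knock-out (KO) and wild-type (WT) mice. Members were all genes whose annotated symbol is Rpl or Rps followed by a digit, or Rpsa, Rplp0, Rplp1 or Rplp2, leaving out the Rps6k kinases and symbols marked as pseudogenes, with the probe of highest mean over the 24 arrays standing for each gene. The rule found 65 of the 19057 named genes on the array, and 59 of these were among the 12166 genes tested. The other 6, Rpl14, Rpl17, Rpl6, Rps20, Rps23 and Rps23rg1, were not above background on any array. Of the 59, 53 were above background on all 24 arrays, and the dimmer 6 were Rpl21, Rps15a, Rpl22l1, Rpl39l, Rpl3l and Rpsa. Rpsa passed on 1 array of 24, so its values lie at background. The rule also takes in Rps19bp1, which encodes a protein that binds Rps19 and is not a subunit, and Rps4l, which the RefSeq table lists as a transcribed pseudogene. Rpl10, Rpl10l, Rpl5 and Rpl11 were not analysed here.

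The cytoplasmic ribosome is built from a small subunit, which reads the messenger RNA, and a large subunit, which joins amino acids. Its proteins are needed in fixed proportions, and many of their messages begin with a run of pyrimidines through which growth signals adjust their translation. In male meiosis the X chromosome is transcriptionally silenced from the pachytene stage on and stays largely repressed in spermatids, so X-linked ribosomal protein genes are shut in those cells, and several have autosomal copies that germ cells use, Rpl39l being a known testis paralog of X-linked Rpl39 in mouse.

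Testis RNA was read on a 1-colour Illumina mouse expression beadchip in 4 groups of 6 arrays, replicates A to F: KO at 49 days, WT at 49 days, KO at 15 days and WT at 15 days. All mice were F1 animals of CBA and C57BL/6J. The KO mice came from a pair of lines, made with the gene-trap stem cell line D014D11 and with the allele Nsun2tm1a(EUCOMM)Wtsi, and the labels do not say which array holds which line, nor whether every array comes from its own animal, and p-values therefore measure the spread between these samples. At 15 days the first wave of germ cells is in meiosis, and at 49 days the testis also holds round and elongating spermatids. The NSun2 enzyme methylates cytosine in RNA, and the comparison asks what its loss does at each age.

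Levels are log2 intensities after background correction and quantile normalization. Changes were called with limma, with Benjamini-Hochberg adjustment over all tested probes and a threshold of 0.05. The single Nsun2 probe was above background on 0 of 12 KO arrays, against 8 of 12 WT arrays. Its fitted log2 change, KO over WT, was -1.15 at 49 days (limma adjusted p = 5.42e-05) and -1.48 at 15 days (adjusted p = 0.000307). All 12 round spermatid markers and all 13 elongating spermatid markers named on the array were above background on all 6 WT arrays at 49 days. KO replicate D at 49 days, KO replicate B at 15 days and WT replicate A at 15 days stood apart in germ cell markers, and leaving out all 3 gave 41 member calls in place of 42 between KO and WT at 49 days. Whole testis was measured, so fewer cells of a type and less RNA per cell cannot be told apart.

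The start regions of 3 X-linked members, 2 autosomal paralogs of them and 2 autosomal members that changed with both age and genotype are printed to show how the sets compare in sequence. Each covers 30 bases before and 50 bases from the annotated start, 5′ to 3′ on the gene's strand, from RefSeq, build GRCm38.p6. Capitals mark the longest unbroken run of C and T. The windows lie at chrX:134585624-134585703 (plus strand) for Rpl36a, chrX:37085173-37085252 (minus) for Rpl39, chrX:102189342-102189421 (minus) for Rps4x, chr12:69184018-69184097 (minus) for Rpl36al, chr16:10170198-10170277 (plus) for Rpl39l, chr7:3704011-3704090 (plus) for Rps9 and chr7:45128696-45128775 (minus) for Rpl13a.
Rpl36a: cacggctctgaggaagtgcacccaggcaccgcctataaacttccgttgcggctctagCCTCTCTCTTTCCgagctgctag
Rpl39: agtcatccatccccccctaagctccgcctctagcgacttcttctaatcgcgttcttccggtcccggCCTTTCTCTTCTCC
Rps4x: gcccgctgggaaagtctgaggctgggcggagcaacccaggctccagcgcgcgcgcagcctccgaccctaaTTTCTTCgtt
Rpl36al: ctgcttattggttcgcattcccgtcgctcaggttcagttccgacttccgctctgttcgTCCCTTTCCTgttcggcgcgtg
Rpl39l: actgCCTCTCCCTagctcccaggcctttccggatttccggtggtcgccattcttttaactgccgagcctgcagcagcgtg
Rps9: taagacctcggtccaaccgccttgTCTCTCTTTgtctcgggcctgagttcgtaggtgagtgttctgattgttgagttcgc
Rpl13a: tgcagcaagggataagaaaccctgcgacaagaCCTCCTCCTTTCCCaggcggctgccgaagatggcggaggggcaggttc

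The longest C and T run had 13 bases in the window of Rpl36a, 14 in Rpl39 and Rpl13a, 10 in Rpl36al, 9 in Rpl39l and Rps9, and 7 in Rps4x. RefSeq start windows were found for 54 of the 65 members, 64 windows in all. A run of at least 8 occurred in 43 of these 64 windows (67.2%), against 29% of 32851 windows of all genes. The letters CTTTCC were present on the gene's strand in 15 of 64 (23.4%), against 3.73% of all windows. The letters CCGGAAG, the core that ETS family factors bind, were present on either strand in 12 of 64 (18.8%), against 4.29%. These are matches of letters near annotated starts, with no test.

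In WT testes, 53 of the 59 members were lower at 49 than at 15 days and 1 was higher, where 55.2% of all tested genes were called lower and 27.9% higher (83.1% in either direction). Their median log2 change was -1.14, against -0.59 over all tested genes. The direction held for most members but its size depended on the normalization. Cyclic loess, which moved the median of all genes to 0.11, gave 33 members lower and 5 higher with a median of -0.34. It called 34.5% of all tested genes lower and 42.7% higher. Scale normalization gave 50 members lower and 1 higher with a median of -0.92 (all genes -0.57), where 54.1% and 27.9% of all tested genes were called. Cell type markers moved with age too: in WT testes 13 of 13 elongating spermatid markers and 11 of 12 round spermatid markers were higher at 49 days, at medians of 8.78 and 4.68, and 10 of 11 Sertoli markers were lower, at a median of -2.13. Their part in the members' changes was not tested. The share of all tested genes called lower under all 3 normalizations was not computed. The same 33 members were lower under all 3. Among them were Rpl3, which lies near the centre where peptide bonds form, Rps19, which is needed to mature the small subunit RNA, and the stalk proteins Rplp1 and Rplp2. Arrays of the 2 ages did not overlap for 51 members lower at 49 days and for 1 higher (49.4% and 25.3% of all tested genes).

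The members with the largest falls included 2 of the 3 X-linked genes. Rps4x, a protein of the small subunit's body, had lowest, median and highest log2 levels of 10.86, 11.09 and 11.17 in WT testes at 49 days, against 13.03, 13.52 and 13.98 at 15 days. The ages did not overlap, and Rps4x fell by 2.52 log2 units (SE 0.21, adjusted p = 1.63e-10 with limma). For Rpl36a, a large subunit protein, the levels were 10.49, 10.73 and 11.13 at 49 days, against 12.97, 13.27 and 13.47 at 15 days. Its WT arrays did not overlap either, and Rpl36a fell by 2.49 (SE 0.20, limma adjusted p = 1.16e-10). Rps3, which sits at the messenger RNA entry channel, spread widely at 10.20, 11.38 and 12.13 at 49 days, against 13.41, 13.63 and 13.90 at 15 days. Even so the ages of Rps3 did not overlap, and it fell by 2.41 (SE 0.35, limma adjusted p = 1.33e-06).

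Rpl22, which binds double-stranded RNA and is not essential in mouse, and Rpl3l, known as the striated-muscle paralog of Rpl3, were the next largest falls. Rpl22 had 9.15, 9.36 and 9.50 in WT testes at 49 days, against 11.29, 11.59 and 11.70 at 15 days. All 6 arrays at 49 days lay below the lowest at 15 days, a fall of 2.20 (SE 0.22, limma adjusted p = 4.82e-09). Rpl3l fell by 2.07 (SE 0.26, limma adjusted p = 1.28e-07), but at 49 days only 3 of 6 WT arrays were above background. X-linked Rpl39, which lines the tunnel through which the new chain leaves, fell by 2.06 (SE 0.23, limma adjusted p = 2.20e-08), with 11.60, 12.37 and 12.64 at 49 days, against 13.94, 14.32 and 14.52 at 15 days. Rpl21 and Rps15a were above background on no WT array at 49 days. Taking, array by array, the lowest signal that passed background as the ceiling, Rpl21 was at least 1.65-fold and Rps15a at least 1.71-fold lower in WT at 49 than at 15 days.

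The 1 member that was higher at 49 days was Rpl39l. In WT testes its lowest, median and highest levels were 8.13, 8.65 and 9.10 at 49 days, against 6.70, 6.91 and 7.01 at 15 days. The ages did not overlap, and the log2 change was 1.78 (SE 0.36, limma adjusted p = 9.35e-05), 2.48 under cyclic loess and 1.71 under scale normalization. Rpl39 and Rpl39l therefore had opposite calls with age under all 3 normalizations. The X-linked gene Rpl36a and its autosomal paralog Rpl36al did not: Rpl36al fell by 0.80 (SE 0.10, limma adjusted p = 1.49e-07) in WT testes, where cyclic loess gave 0.15 (adjusted p = 0.256).

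The 5 members not called between WT ages were Rpl41, Rpl23, Rps29, Rpsa and Rpl22l1. The first 3 are among the brightest probes on the array, and 10 of the 20 brightest genes were members. Rpl41, the shortest ribosomal protein, read 15.78, 15.84 and 15.87 in WT at 49 days, against 15.79, 15.85 and 15.88 at 15 days, so all 12 arrays lay within a narrow band at the top of the scale. The 10 members at 60% or more of the brightest probe's intensity had a median change with age of -0.34 in WT. For the 33 members at 10% to 60% the median was -1.29, and for the 16 below 10% it was -1.21. Rpl23 was measured by dimmer probes too, and those fell by 1.10 and 2.31 with age in WT, where its brightest probe gave -0.02.

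**Figure D1:**
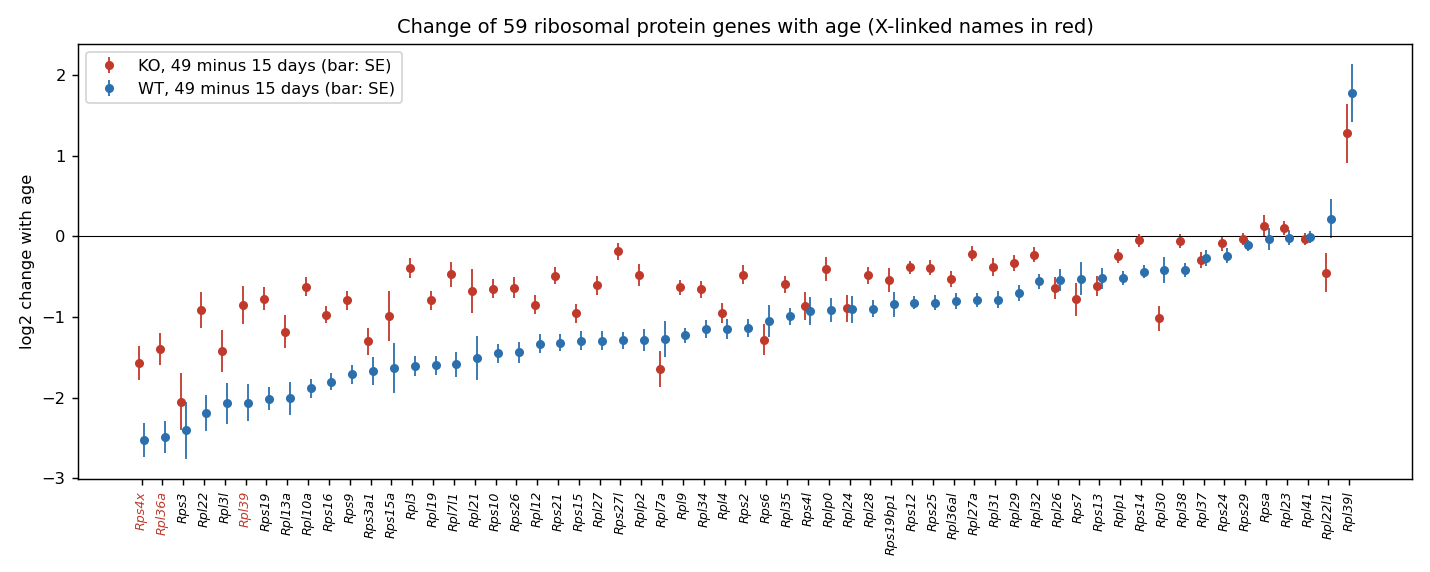
Log2 change between 49 and 15 days for each of the 59 tested members, in KO testes (red) and WT testes (blue), with the standard error as a bar and X-linked names in red. Nearly all WT points lie below 0, Rps4x and Rpl36a lowest at -2.52 and -2.49, and Rpl39l stands alone at 1.78.

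In KO testes, 49 members were lower at 49 than at 15 days and 1, Rpl39l, was higher, where 34.3% and 24% of all tested genes were called (58.3% in either direction). The median change of the members was -0.61, against -0.18 over all genes. It was -0.57 under cyclic loess (all genes 0.13) and -0.82 under scale normalization (all genes -0.22). Cyclic loess called 43 members and 19.9% of all tested genes lower, and scale normalization 53 members and 34.4%. Under all 3 normalizations 42 members were lower, and the share of all tested genes lower under all 3 was not computed. Ages did not overlap for 37 members lower at 49 days (14% of all genes). Rps3 fell by 2.05 (SE 0.35, limma adjusted p = 3.12e-05). Rpl7a, a large subunit protein, fell by 1.64 (SE 0.22, limma adjusted p = 1.52e-06). Rps4x fell by 1.57 (SE 0.21), Rpl3l by 1.42 (SE 0.26) and Rpl36a by 1.39 (SE 0.20), and X-linked Rpl39 fell by 0.85 (SE 0.23, limma adjusted p = 0.00307). Rps27l, a paralog of Rps27 that responds to p53 in human cells, was not called in KO (-0.19, adjusted p = 0.141) under quantile normalization, where it fell by 1.29 in WT (adjusted p = 1.77e-10). In KO it was called lower under cyclic loess (-0.23, adjusted p = 0.0488) and scale normalization (-0.49, adjusted p = 0.00504).

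At 49 days, KO testes had higher levels than WT testes for 41 members and a lower level for 1, where 46.7% of all tested genes were called higher and 26.5% lower (73.2% in either direction). The median log2 change was 0.49, against 0.30 over all genes. For the family as a whole this direction was not stable. Cyclic loess gave 14 members higher, 20 lower and a median of -0.022 (all genes -0.078). It called 31.1% of all tested genes higher and 39.6% lower. Scale normalization gave 19 members higher, 6 lower and a median of 0.11 (all genes 0.27), where 44.2% and 28.0% of all tested genes were called. By subunit, quantile normalization called 26 of 35 large subunit members higher, with Rpl39l lower, and 15 of 23 small subunit members higher. Arrays of the genotypes did not overlap for 27 members higher in KO (24.1% of all genes). Within slides, each with 1 or 2 arrays of a group, the members' median was 0.35 to 0.64, and 0.50 with slide as a block. The KO mean at 49 days lay between the WT means of 49 and 15 days for 51 of 59 members, as it did for 74.5% of all tested genes.

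Under all 3 normalizations, 13 members were higher in KO at 49 days: Rpl10a, Rpl13a, Rpl19, Rpl21, Rpl22, Rpl3, Rpl36a, Rpl39, Rpl7l1, Rps15a, Rps19, Rps4x and Rps9. Rpl39l was lower under all 3. The share of all tested genes called under all 3 was not computed. Cyclic loess alone called 14 of the 59 members and 31.1% of all tested genes higher. Another 7, Rpl12, Rpl28, Rpl29, Rpl32, Rpl35, Rpl36al and Rps25, were called higher under at least 1 normalization and lower under another, so no direction is given for them.

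**Figure D2:**
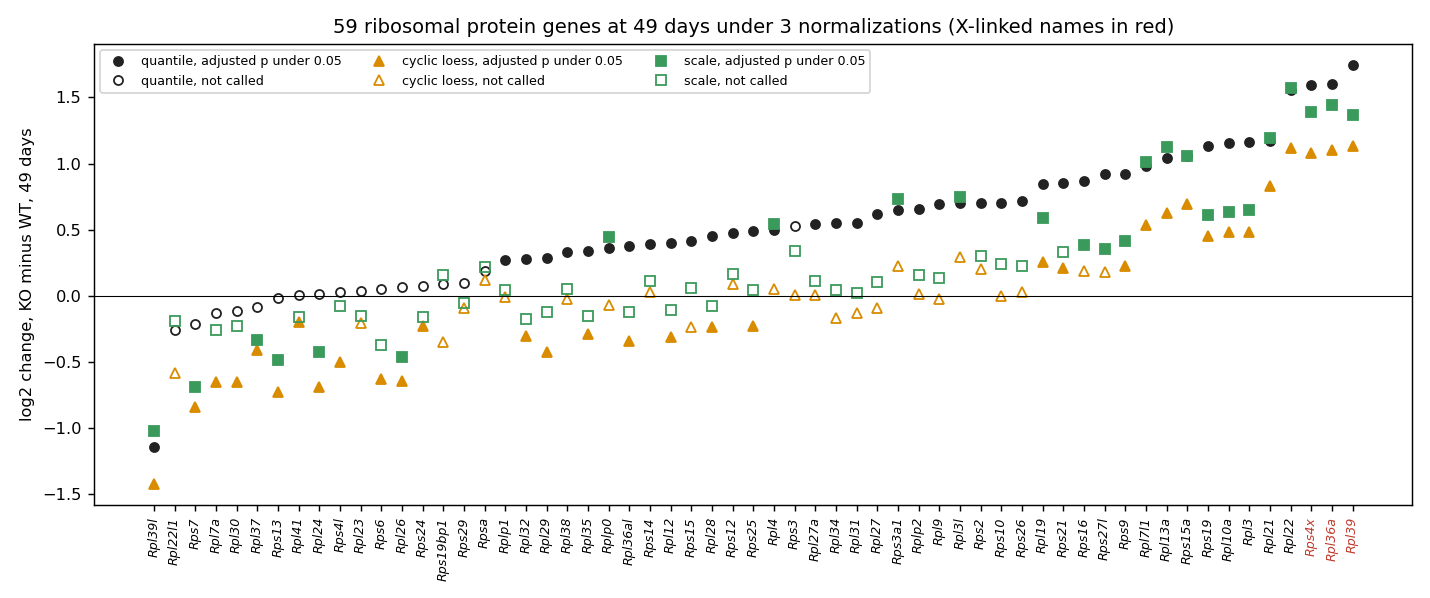
Log2 change, KO minus WT at 49 days, of the 59 members under quantile (black circles), cyclic loess (orange triangles) and scale normalization (green squares), filled where the adjusted p was under 0.05, with X-linked names in red. The 3 X-linked genes and Rpl22 lie above 1 in every normalization, Rpl39l lies below -1 in every one, and most of the middle of the family crosses 0 between quantile and cyclic loess.

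Under quantile normalization the 3 X-linked members were the 3 with the largest positive change. Rpl39 had lowest, median and highest levels of 12.93, 14.16 and 14.66 in KO testes, against 11.60, 12.37 and 12.64 in WT testes. No KO array reached down to a WT array, and the log2 change was 1.75 (SE 0.23, limma adjusted p = 2.19e-06). Rpl36a had 11.46, 12.62 and 12.96 in KO, against 10.49, 10.73 and 11.13 in WT. The groups did not overlap, with a change of 1.61 (SE 0.20, limma adjusted p = 1.17e-06). Rps4x had 11.85, 12.72 and 13.55 in KO, against 10.86, 11.09 and 11.17 in WT. Again all KO arrays were above all WT arrays, and the change was 1.59 (SE 0.21, limma adjusted p = 1.89e-06). Cyclic loess gave 1.13, 1.10 and 1.08 for Rpl39, Rpl36a and Rps4x, and scale normalization gave 1.36, 1.44 and 1.39. Autosomal Rpl22 was at 1.12 under cyclic loess, above Rpl36a and Rps4x, and at 1.57 under scale normalization, above all 3. Within slides the changes of the 3 X-linked genes ranged from 1.45 to 2.20.

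Over all 458 tested X-linked genes the median in the same comparison was 1.03, with 315 called higher (68.8%) and 75 lower (16.4%). Over 11651 autosomal genes the median was 0.28, with 46.0% called higher and 26.8% lower. The mean of the 3 X-linked members minus the mean of the 56 autosomal members, taken on each array and set to 0 at the WT average of 49 days, changed little with the scaling. It was 0.44 to 2.05 on the 6 KO arrays at 49 days, -0.31 to 0.24 on WT arrays at 49 days, 1.78 to 1.99 on KO arrays at 15 days and 1.16 to 1.61 on WT arrays at 15 days. Under cyclic loess the KO arrays at 49 days had 0.49 to 2.05, and the WT arrays -0.36 to 0.27. No KO array overlapped a WT array of the same age.

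Among KO arrays at 49 days, germ cell markers varied with this difference. Replicate D had the highest X-linked minus autosomal value, 2.05, and its 12 round spermatid markers averaged -4.21 relative to the WT mean. Replicates F and A had the lowest, 0.44 and 0.67, with those markers at -0.38 and -0.52. The other KO arrays, B, C and E, lay between, at 1.27, 1.35 and 1.40, with the markers at -1.48, -2.53 and -2.26. Over all 12 markers, 11 were called lower in KO and 0 higher, and the mean marker level ran from 8.14 to 11.97 in KO and from 12.25 to 12.47 in WT. All 11 Sertoli markers named on the array were higher in KO, at a mean level of 9.98 to 12.11 in KO and 8.95 to 9.44 in WT, where Amh and Gata1 were above background on 0 of 6 arrays. The part of these cell types in the members' changes was not tested. Without replicate D, each of the 3 X-linked genes kept its call.

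**Figure D3:**
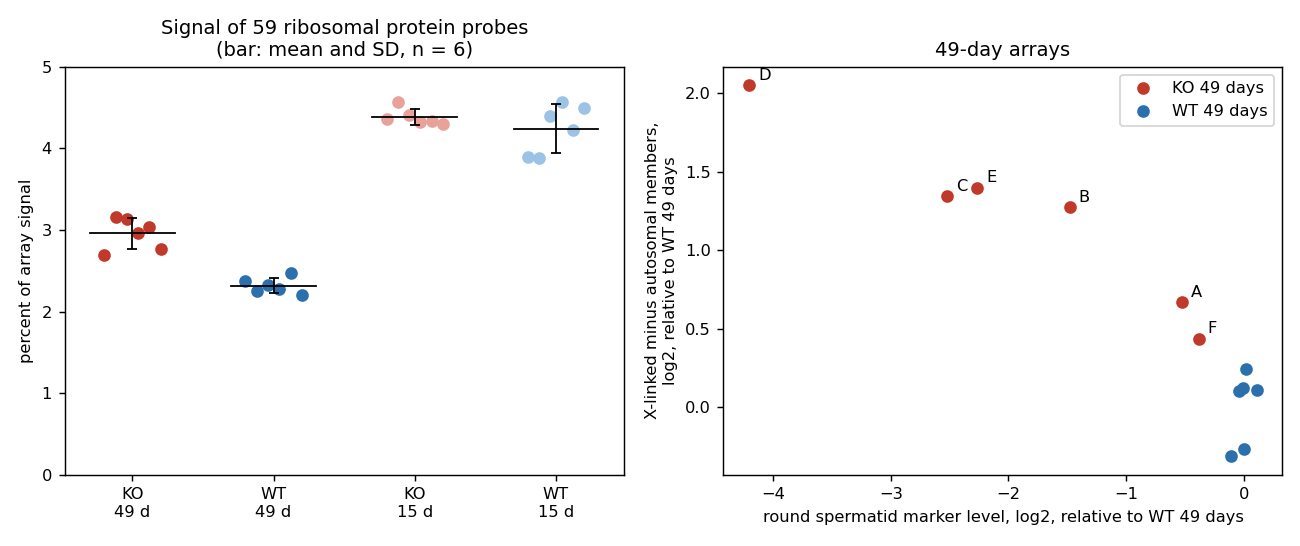
Left, percent of the background-subtracted signal of each array that falls on the 59 member probes, by group, with mean and SD. Right, the X-linked minus autosomal member difference against the round spermatid marker level on the 12 arrays of 49 days, both on the log2 scale relative to the WT mean; KO replicates are lettered, and they run from D, with 2.05 at markers of -4.21, to F, with 0.44 at -0.38.

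Beyond the X chromosome, Rpl22 showed the largest positive change. Its lowest, median and highest levels were 9.98, 11.11 and 11.87 in KO at 49 days, against 9.15, 9.36 and 9.50 in WT. KO and WT arrays did not overlap, and the change was 1.56 (SE 0.22, limma adjusted p = 4.88e-06), 1.12 under cyclic loess and 1.57 under scale normalization. KO replicates A and F had the lowest Rpl22, as they had the lowest Rps4x and Rpl36a. Its paralog Rpl22l1, an alternative large subunit protein that can replace it in mouse, was not called at -0.26 (SE 0.24, limma adjusted p = 0.34), but with array weights it was called lower (-0.60, adjusted p = 0.006). Rpl22l1 had 6.35, 6.95 and 7.65 in KO, against 6.46, 7.28 and 7.68 in WT, and the groups overlapped.

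Rpl10a, which sits at the stalk on the side opposite the P-proteins, had 13.97, 14.60 and 14.79 in KO, against 13.21, 13.33 and 13.46 in WT. The groups of Rpl10a did not overlap, with a change of 1.16 (SE 0.12, limma adjusted p = 9.71e-08). Rps19 had 13.74, 14.48 and 14.71 in KO, against 13.06, 13.18 and 13.34 in WT, and Rpl3 had 13.94, 14.63 and 14.86 in KO, against 13.25, 13.33 and 13.47 in WT. Neither gene's groups overlapped, and the changes were 1.13 and 1.16 (limma adjusted p = 1.11e-06 and 2.62e-07). Under cyclic loess the 3 changes were 0.48, 0.45 and 0.48, each still called. Rps9, a protein of the small subunit's body, changed by 0.92 and Rpl13a, known in human cells for silencing translation of inflammatory messages, by 1.05, with no overlap for either. Rps9 was at 0.22 under cyclic loess (adjusted p = 0.0454) and 0.41 under scale normalization, and Rpl13a at 0.63 and 1.12.

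Rpl21 and Rps15a were dim, and 4 of 6 KO arrays and 0 of 6 WT arrays at 49 days were above background. Rpl21 was at least 1.31-fold higher in KO (measured mean log2 levels of 6.98 and 5.80, limma adjusted p = 0.00056), and a pair of other Rpl21 probes were called higher too. Rps15a was at least 1.15-fold higher (6.79 in KO and 5.73 in WT, limma adjusted p = 0.00472).

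Of the 7 tissue paralogs, quantile normalization called 4 higher in KO at 49 days, Rpl7l1, Rps27l, Rpl3l and Rpl36al (57.1%, against 46.7% of all tested genes), and Rpl39l lower. Under cyclic loess Rps27l and Rpl3l were not called and Rpl36al was called lower. Rpl39l had 5.56, 7.60 and 8.74 in KO, against 8.13, 8.65 and 9.10 in WT. The groups overlapped, because replicates F and A lay within the WT range while replicate D was the lowest and was not above background. Rpl39l fell by 1.14 (SE 0.36, limma adjusted p = 0.00768), and by 1.42 under cyclic loess and 1.02 under scale normalization. On each array, Rpl39l minus Rpl39 was taken relative to the WT mean of 49 days. It was -0.67 on KO replicate F, within the WT range of -0.98 to 0.84. KO replicates A, B, C and E had -1.23, -3.55, -2.96 and -3.35, below every WT array. On replicate D, where Rpl39l was at background, no exact value can be given.

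Rpl7l1, a nucleolar relative of Rpl7, had 9.85, 10.55 and 10.88 in KO, against 9.23, 9.41 and 9.67 in WT. All KO arrays were above all WT arrays, with a change of 0.99 (limma adjusted p = 1.14e-05), 0.53 under cyclic loess. Rps27l had 14.06, 14.40 and 14.65 in KO, against 13.37, 13.47 and 13.59 in WT, again without overlap. Its change was 0.92 (limma adjusted p = 5.16e-07), but under cyclic loess it was 0.18 (adjusted p = 0.11). Rpl3l changed by 0.70 (limma adjusted p = 0.0205), and its call was lost under cyclic loess (0.30, adjusted p = 0.247), in a fit to the 12 arrays of 49 days (0.0753), and without KO replicate C (0.0727), KO replicate E (0.0595) or WT replicate C (0.065). Rpl36al changed by 0.38 under quantile normalization, by -0.34 under cyclic loess and by -0.12 under scale normalization. Rps4l was not called, at 0.03.

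The stalk, through which translation factors are drawn to the large subunit, is formed by Rplp0, Rplp1 and Rplp2. Quantile normalization called all 3 higher in KO at 49 days, by 0.36, 0.27 and 0.65, where 46.7% of all tested genes were higher. Scale normalization called Rplp0 higher (0.45, limma adjusted p = 0.0181) but not Rplp1 (0.043) or Rplp2 (0.16). Cyclic loess called none, at -0.073, -0.011 and 0.012. The call of Rplp0 (limma adjusted p = 0.0348) was also lost in 6 of the fits that left out 1 array, without KO replicates C, D or E or WT replicates A, C or D, with adjusted p up to 0.105. It was lost with slide as a fixed block (0.0535), in the fit to 12 arrays (0.0992) and without the 3 arrays that stood apart (0.107). The most negative members after Rpl39l and Rpl22l1 were Rps7 at -0.22, Rpl7a at -0.13 and Rpl30 at -0.11, none of them called under quantile normalization. Cyclic loess called all 3 lower in KO, Rps7 at -0.84, Rpl7a at -0.66 and Rpl30 at -0.65. Scale normalization called Rps7 lower (-0.69), and a second Rpl30 probe was called lower under quantile normalization (-0.39). Rps19bp1 was at 0.09 and not called.

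Bright probes again moved less at 49 days, with a median of 0.18 for the 10 members at 60% or more of the brightest probe, 0.55 for the 33 at 10% to 60% and 0.43 for the 16 below. Of 21 other tested probes, for 16 members, 10 had the same call at 49 days as the probe used and 1 had the opposite. That 1 was Rpl29, at -0.50 on a second probe and 0.29 on the first. The other probes of Rpl23 were called higher at 0.89 and 1.17, where the first was at 0.04, and those of Rps24 at 0.61 and 0.62, where the first was at 0.07.

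The share of each array's background-subtracted signal that falls on the 59 member probes scales the members by the array's total signal, so it also depends on the other genes. It averaged 2.96% ± 0.19 on KO arrays at 49 days and 2.32% ± 0.10 on WT arrays at 49 days (SD, n = 6 each). The 6 KO arrays lay between 2.70% and 3.15%, all above the WT arrays at 2.20% to 2.47%. At 15 days the share was 4.38% ± 0.10 in KO and 4.24% ± 0.30 in WT, and the genotypes overlapped. This measure was added with the results known and carries no test.

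**Figure D4:**
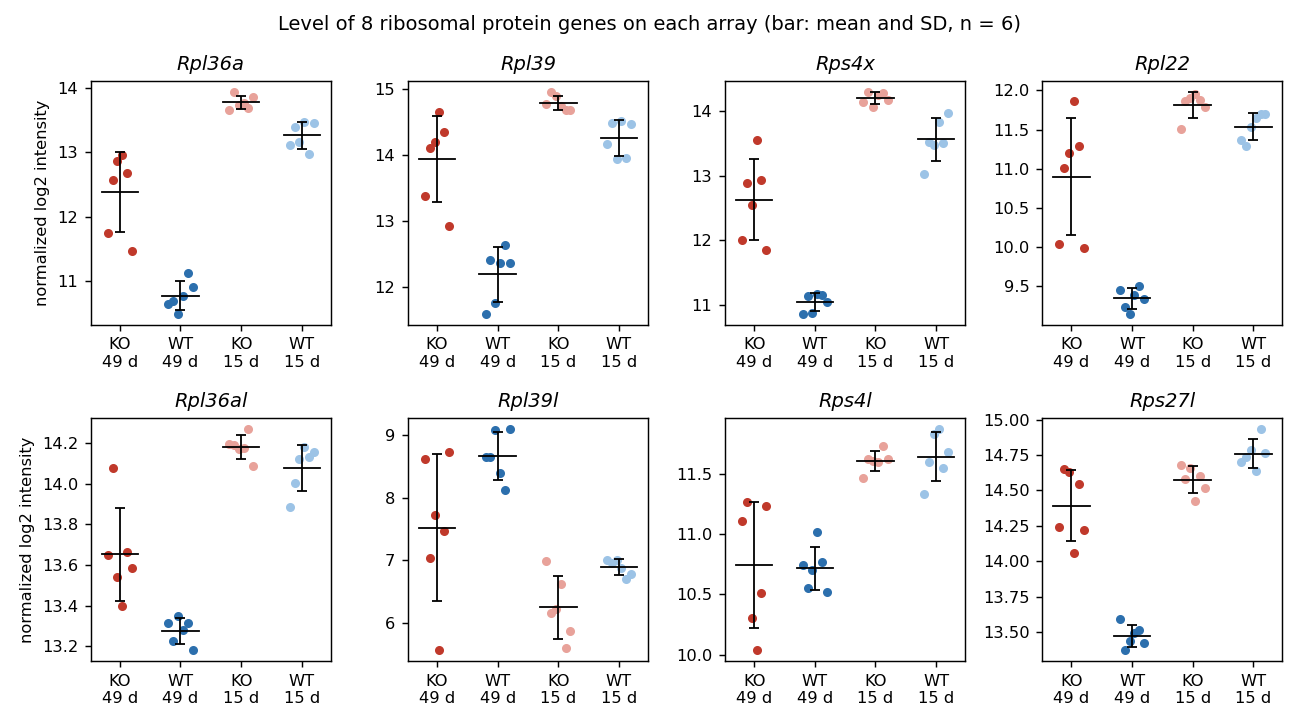
Normalized log2 level of 8 members on each of the 24 arrays, with mean and SD per group of 6. The X-linked genes Rpl36a, Rpl39 and Rps4x and autosomal Rpl22 have all KO points above all WT points at 49 days, and Rpl39l has its highest points in WT at 49 days and a KO point at 5.56.

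At 15 days no member was called between KO and WT by limma, where 1.09% of all tested genes were called higher and 3.61% lower (4.7% in either direction). An unadjusted limma p under 0.05 was found for 5 of the 59 members and for 2324 of the 12166 tested genes. The members' median was 0.02. The most positive were Rps4x at 0.64 (SE 0.21, adjusted p = 0.0799), Rpl39 at 0.53 (SE 0.23, adjusted p = 0.21), Rpl36a at 0.51 (SE 0.20, adjusted p = 0.156) and Rpl30 at 0.49 (SE 0.16, adjusted p = 0.0799), all from limma. These 4, which include all 3 X-linked members, were also the members whose KO and WT arrays did not overlap at 15 days (4.53% of all genes were without overlap and higher in KO, and 6.56% lower). A second Rpl30 probe was at 0.14 (SE 0.13, limma adjusted p = 0.674). Rps15a at 0.42 overlapped. These calls also depended on arrays of the other age, which share the fit: without KO replicate D of 49 days, Rps4x (adjusted p = 0.0156) and Rpl30 (0.0213) were called, and without KO replicate F of 49 days, Rps4x (0.0413).

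Rps4x had 14.07, 14.20 and 14.29 in KO testes at 15 days, against 13.03, 13.52 and 13.98 in WT. Rpl36a had 13.66, 13.75 and 13.93 in KO, against 12.97, 13.27 and 13.47 in WT. Rpl39 had 14.69, 14.76 and 14.96 in KO, against 13.94, 14.32 and 14.52 in WT. In each gene the lowest KO array was above the highest WT array. Cyclic loess called all 3 (limma adjusted p = 0.0145, 0.0341 and 0.0449 in that order), as did a fit to the 12 arrays of 15 days (0.0069, 0.00556 and 0.01) and array weights (0.000971, 0.00251 and 0.0115). The fit to 12 arrays and array weights also called many more of all 22639 tested probes, 3848 and 4303. The main fit called 950 and cyclic loess 924. Within each of the 4 slides the 3 genes were higher in KO, by 0.25 to 1.15. Over 458 X-linked genes the median change was 0.22, with 20 called higher and 0 lower. At this age 6 of 10 tested markers of pachytene and late meiosis were called lower in KO, at a mean level of 6.54 to 8.40 in KO and 8.70 to 10.55 in WT, while Ccna1 and Mybl1 were above background on no array of either group. Their part in the members' levels was not tested.

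The most negative members at 15 days were Rpl39l at -0.64 (SE 0.36, limma adjusted p = 0.375), Rps19bp1 at -0.21, Rps27l at -0.18, and Rplp2 and Rplp0 at -0.15, none called. Rpl39l averaged 6.25 ± 0.50 in KO and 6.89 ± 0.13 in WT (SD, n = 6 each), with 2 of 6 KO arrays and 6 of 6 WT arrays above background. Rpl30, a large subunit protein that in yeast also regulates its own splicing, had 11.65, 11.74 and 11.89 in KO, against 10.98, 11.27 and 11.54 in WT.

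Whether the genotype difference itself changed between 15 and 49 days was tested as an interaction. It was called for 33 members with a more positive difference at 49 days and for 1, Rpl30, with a more negative one, where 36% and 16.9% of all tested genes were called. The members' median was 0.41 (all genes 0.35), and this direction also turned under cyclic loess, to -0.086 with 5 members more positive and 15 more negative. Cyclic loess called 17.6% of all tested genes more positive and 26.6% more negative. The share of all tested genes called under all 3 normalizations was not computed. Rpl10a, Rpl22, Rpl7l1 and Rps19 were more positive under all 3 normalizations, at 1.26 (SE 0.16), 1.28 (SE 0.32), 1.12 (SE 0.22) and 1.24 (SE 0.20) under quantile normalization. A second Rpl7l1 probe was at 0.45 and not called (limma adjusted p = 0.127), and a second Rps19 probe was called at 0.52 (limma adjusted p = 0.0237). The paralog Rpl22l1 was at -0.67 (SE 0.34, limma adjusted p = 0.11) and was called only without KO replicate E of 15 days (0.0451), KO replicate A of 49 days (0.0458) or WT replicate A of 49 days (0.043), among the fits that left out 1 array. It was also called with slide as a fixed block (-0.96, adjusted p = 0.0163), under cyclic loess (-0.95, adjusted p = 0.0411) and with array weights (adjusted p = 0.00291). Rpl3 was at 1.21 and was not called under scale normalization (0.57, adjusted p = 0.0572). The X-linked genes Rpl39, Rpl36a and Rps4x were at 1.21, 1.09 and 0.95, and none was called under cyclic loess (limma adjusted p = 0.292, 0.0615 and 0.332). Scale normalization called Rpl36a (0.029) but not Rpl39 (0.64, adjusted p = 0.154) or Rps4x (0.64, adjusted p = 0.104). Rpl30 was at -0.60 (SE 0.22, limma adjusted p = 0.0301), more negative under all 3 normalizations, but its call was lost without the 3 arrays that stood apart (-0.43, adjusted p = 0.10), and without WT replicates A or E of 15 days or KO replicates C or E of 49 days.

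Genes that serve the ribosome without being part of it were set beside the members. Their values are given under quantile normalization only, and cyclic loess turned the median of all tested genes at 49 days to -0.078. For ribosome biogenesis, 20 of 31 tested genes were higher in KO at 49 days and 2 lower, with a median of 0.51, where 46.7% of all tested genes were higher and 26.5% lower with a median of 0.30. Ncl, the nucleolar protein nucleolin, was at 1.52, Pes1, which matures the large subunit RNA, at 1.43 and Ddx21, an RNA helicase of the nucleolus, at 1.05, while Tsr1, a small subunit maturation factor, was at -2.08 and Sbds, which acts on the late large subunit, at -0.79. For RNA polymerase I, which transcribes the large ribosomal RNA precursor, 9 of 16 (56.2%) were higher and 1, Taf1c at -0.42, was lower. Ubtf, its upstream binding factor, was at 1.85, Polr2h, a subunit shared between polymerases, at 1.26 and Polr1b at 1.15.

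Mitochondrial ribosomal protein genes had 42 of 72 higher (58.3%) and 9 lower (12.5%), with a median of 0.44, against 46.7% and 26.5% of all tested genes. Mrps27 at 1.43, Mrps24 at 1.35 and Mrps17 at 1.33 were highest, and Mrpl39, Mrpl47 at -0.91 and Mrpl1 at -0.72 were lowest. Translation factors whose messages also begin with pyrimidine runs were divided, with 5 of 16 higher (31.2%) and 4 lower (25%) and a median of 0.13, again against 46.7% and 26.5%. Vim, an intermediate filament message of the same class, was at 1.40, Hnrnpa1 at 1.37 and the elongation factor subunit Eef1b2 at 0.63, while Eif4b, which assists the scanning helicase, was at -1.65, the translocase Eef2 at -1.31 and Eef1d at -0.80. No test compared the lists, and their values are from quantile normalization alone. At 15 days limma called none of the tested genes of these 4 lists.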

How the data were processed

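The deposited table holds bead summary intensity for 45278 probes and 956 control rows per array, linear and not normalized by the authors. No detection p-values were filled in. The authors' deposited log2 values equal the quantile-normalized log2 intensities without background correction (largest difference 3.62e-05) and served as an alternative. Scanner software is not given in the sources used here.

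Intensities were corrected by normexp against 946 dim control rows (medians below 400, offset 16) and quantile normalized with limma 3.58.1 in R 4.3.3. Without detection p-values, the brighter share of 0.5 of probes (22639) was tested, the planned fallback. A probe was above background where under 1% of dim control rows were brighter, which held for 16354 to 19144 probes per array. Median intensity was 223.9 to 278.7, and 6 arrays per group limit the precision.

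One model with a mean per group was fitted (lmFit, eBayes, 20 residual degrees of freedom) and tested on simulated data. Named were the 5 most positive and 5 most negative members per contrast, X-linked members, paralogs, stalk genes, Rpsa and Rps19bp1, and up to 3 passing genes per direction of other lists. Other members given with values, such as those called in all 3 normalizations or measured by several probes, were chosen after their values were seen. Members and lists were chosen with earlier results of these data known. Probes with several symbols (18) or none (10375) were not named; chromosomes come from RefSeq, GRCm38.p6. Ribosomal protein genes have many processed pseudogenes, and probes were not checked against them. Replicate letters did not pair the samples: of 36 pairs of same-lettered arrays, 6 correlated above 0.1.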

Additional observations from a re-analysis of the deposited data

Results flagged for a closer look

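One array lay far from the other 5 of its group in 4 of 116 values checked (28 genes and the members' mean in 4 groups); chance gives about 1 in 20. KO replicate A at 15 days had the lowest Rpl22, 11.50 against 11.79 for the next array, and the lowest Rpl7a, 12.09 against 12.32. WT replicate D at 15 days had the highest Rplp0, 9.99 against 9.71. WT replicate E at 49 days had the highest mean of the tested members, 12.27 against 12.20.

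The KO minus WT change differed between 49 and 15 days, by the interaction test of the limma fit, for 12 named members. The difference of log2 changes was 1.28 for Rpl22, 1.26 for Rpl10a, 1.24 for Rps19, 1.21 for Rpl3, 1.21 for Rpl39, 1.12 for Rpl7l1, 1.10 for Rps27l, 1.09 for Rpl36a, 0.95 for Rps4x, 0.80 for Rplp2, 0.51 for Rplp0 and -0.60 for Rpl30. The calls of Rplp2 and Rps27l were lost under cyclic loess (0.035 and 0.24, adjusted p = 0.883 and 0.162) and scale normalization (0.21 and 0.44, adjusted p = 0.55 and 0.0748). For Rplp0 the adjusted p was 0.0488, and 23 of 36 settings did not call it.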

How the results depend on the processing

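The counts of called members were 42 at 49 days between KO and WT, 34 for the difference between ages, 54 for age in WT and 50 for age in KO, and 0 at 15 days. Among all tested genes 73.2%, 52.9%, 83.1%, 58.3% and 4.7% were called, in that order. With the replicate block the members' counts were 42, 32, 54, 48 and 0, so the block changed no count by over 1.5 times. Scale normalization gave 25 calls at 49 days and 13 for the difference, cyclic loess 20 for the difference. For the difference, scale normalization called 8 members more positive and 5 more negative, where 30.3% and 18.5% of all tested genes were called. Medians turned under cyclic loess, to -0.022 at 49 days and -0.086 for the difference. Scale normalization gave 0.11 and 0.067 there, and array weights 0.59 and 0.56. For age in WT the median was -0.34 under cyclic loess, -0.92 under scale normalization, -0.94 without background correction and with the authors' values, and -0.93 without the filter on dim probes. For age in KO it was -0.82 under scale normalization and -0.49 with array weights. At 15 days the fit to 12 arrays called 3848 of all 22639 tested probes and array weights 4303, against 950 in the main fit. Among members at 15 days, calls were 3 under cyclic loess, 1 each under scale normalization, without background correction and with the authors' values, and 6 each with a fit to 12 arrays and with array weights. Their medians were 0.088 under cyclic loess and 0.080 under scale normalization. Leaving out 1 array at a time gave 0 to 2 calls at 15 days, 40 to 42 at 49 days, 28 to 36 for the difference, 53 to 54 for age in WT and 47 to 50 for age in KO. The medians ran from 0.00 to 0.04, 0.46 to 0.54, 0.39 to 0.46, -1.16 to -1.10 and -0.67 to -0.52. The causes were not tested.

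Among named members called before or after the change of setting, these turned in sign. Under cyclic loess, at 49 days Rpl36al was at -0.34, Rps4l at -0.50, Rplp0 at -0.073 and Rplp1 at -0.011; the difference of Rpl36al was -0.58; with age in WT, Rpl41 was at 0.19 and Rpl36al at 0.15. Under scale normalization Rpl36al was at -0.12 at 49 days. Averaged over its probes, Rpl23 was at -0.51 with age in KO. Uncalled values also crossed 0 under cyclic loess, such as Rps19bp1 at 49 days, at -0.35. The fit to 12 arrays gives no value for the difference. Bright probes near the top of the scale and dim probes near background limit what can be measured. Leaving out KO replicate B and WT replicate A of 15 days and KO replicate D of 49 days together was chosen after seeing the data.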
